A study of Mus musculus with 4 samples.

Results

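Gene expression was compared between etoposide-treated and mock-treated mouse embryonic fibroblasts that carried a p63 retrovirus, on 1 array each, 2 of the 4 arrays of the series. The difference was taken as the log2 signal of the etoposide-treated p63 sample minus that of the mock-treated p63 sample, and the samples were identified by their titles. The cells came from E13.5 embryos of C57BL/6 background, lacked BAX and BAK, the effectors that open the outer mitochondrial membrane in apoptosis, and were SV40 transformed, by a virus whose large T antigen inactivates p53 and pRB. All 4 samples share that genotype and transformation, and the other 2 are the same cells with a GFP retrovirus, mock-treated or given etoposide. Treatment lasted 6 h, with etoposide at 10 µg/mL in the treatment protocol and the same number per microlitre elsewhere in the labels. The sources used here do not say whether each virus was carried by a pool or a clone of cells, or which isoform and species of p63 it encoded. In such bulk samples, fewer cells of a type and less RNA per cell cannot be told apart.

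Etoposide traps topoisomerase II on cleaved DNA and so leaves double-strand breaks. Breaks activate the ATM and ATR kinases, which stabilise p53 and arrest the cell cycle, and they also activate NF-kB and stress kinases that act on the AP-1 factors. p63 is a member of the p53 family that binds much the same DNA sequence, and in the epidermis it maintains the genes of basal keratinocytes.

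Of 19938 genes with a named probe set, 10698 reached a signal of 5.87, the median of all values, on at least 1 array, and these were compared. Values are log2 RMA signals, so that a difference of 1 is a 2-fold change, and genes past 1 in either direction are termed higher or lower, or called. Each side is a single array without replicate spread, which leaves the values without a test or an error. Of the genes compared, 672 (6.28%) were higher and 142 (1.33%) were lower after etoposide. Of these, 69 were higher by at least 2 and 12 were lower by at least 2. After dim values were set to the filter, the counts were 584 (5.46%) higher and 117 (1.09%) lower. The median gene stood at 0.10, with -0.18 and 0.42 as the 25th and 75th percentiles.

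The mock-treated p63 array stood apart from the others, and this bears on every value below. Its median over the genes compared was 7.48, against 7.68 on the etoposide-treated p63 array and 7.69 and 7.60 on the mock-treated and etoposide-treated GFP arrays. Among the 672 higher genes it was at least 1 below each of the other 3 arrays for 92, while the etoposide-treated p63 array was at least 1 above each of the others for 29. Among the 142 lower genes it was at least 1 above the others for 46, and the etoposide-treated p63 array was at least 1 below the others for 3. Counts against the mock-treated GFP array, a reference that carries the difference between the viruses in its place, are therefore given beside the counts of the larger gene groups and of several lists. Of the 672 higher genes, 328 (3.07% of all compared) were also at least 1 above mock-treated GFP cells. Of the 142 lower genes, 53 (0.495%) were also at least 1 below them. In GFP cells themselves, 377 genes (3.52%) were higher and 227 (2.12%) lower after etoposide. When the arrays were centred on their medians, the median difference in p63 cells moved from 0.10 to -0.10, with 406 genes higher and 263 lower (60.7% of the calls higher, against 82.6% as deposited). The median of 17 of 53 gene lists changed sign with this centring, none of them a median larger in size than 0.19, so the list medians below are to be read against the 0.10 of all genes.

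**Figure D1:**
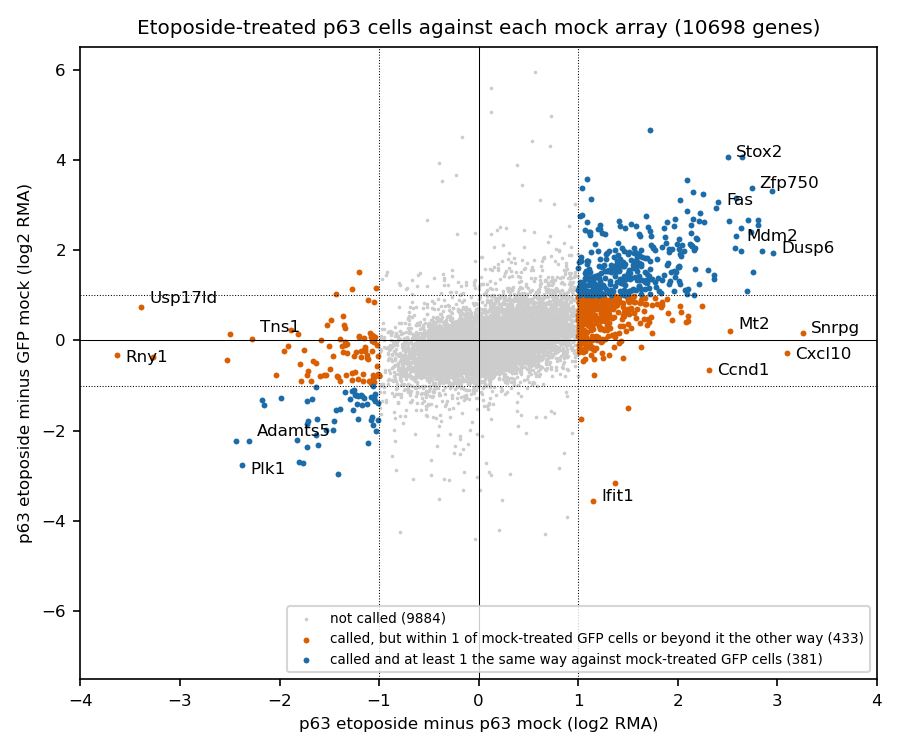
Each point is 1 of 10698 genes, with the etoposide-treated p63 array minus the mock-treated p63 array on the x axis and the same array minus the mock-treated GFP array on the y axis (log2 RMA), and dotted lines at a difference of 1. The blue genes (328 higher and 53 lower) were called the same way against both mock arrays, and the orange genes (344 higher and 89 lower), Snrpg, Cxcl10 and Mt2 among them, only against the mock-treated p63 array.

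The labels were checked on the arrays. Trp63 stood at 8.75 and 9.29 in mock-treated and etoposide-treated p63 cells and at 4.87 and 5.59 in GFP cells. Both p63 arrays were thus high, and they differed by 0.54, which was not called. Of 13 fibroblast markers 10 reached the filter, among them Col1a1 (12.20 and 12.27) and Vim (12.27 and 12.13 in p63 cells), whereas Pdgfra, Thy1 and Dcn were below it on all 4 arrays. Of 60 measured markers of 6 other cell types 16 reached it. In p63 cells 3 of these were higher and 1 lower, against 6.28% and 1.33% of all genes. The leukocyte gene Ptprc (3.69 and 3.65), the endothelial gene Cdh5 (4.95 and 4.55) and the epithelial gene Epcam (4.84 and 5.07) stayed below it in p63 cells. In contrast 4 of the 11 simple epithelium markers and 1 of the 10 endothelial markers reached the filter. The 4 epithelial markers had a summed linear signal of 1381 and 1674 in p63 cells, and 246 and 378 in GFP cells. Cd14 (4.79 and 6.82) and Cd68 (5.20 and 6.87) were higher after etoposide and were the 2 of 11 haematopoietic markers that reached the filter. Both mock readings were below it, and Cd14 was at 0.95 with dim readings raised. Their summed linear signal was 64.4 in mock-treated and 230.3 in etoposide-treated p63 cells, and 114 and 266 in GFP cells, and its part in other results was not tested.

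Of 69 p53 target genes on 5 role lists, 40 (58.0%) were higher by at least 1 in p63 cells, 0 were lower, and the median was 1.29. The shares of all genes that were higher were 6.28% in p63 cells and 3.52% in GFP cells. In GFP cells 32 of the 69 were higher, and 32 of the 40 were also at least 1 above mock-treated GFP cells. These genes were listed because p53 is known to activate them, and several p53 targets are also bound by p63. Cdkn1a was not analysed here.

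The feedback regulators of p53 came first, with 6 of 8 higher, 4 of them also against mock-treated GFP cells. Mdm2, the ubiquitin ligase that degrades p53, had 9.71 in mock-treated and 12.29 in etoposide-treated p63 cells, and 9.99 and 12.39 in GFP cells. The treated and untreated arrays thus did not overlap and the lines lay close together. Ccng1, a cyclin that recruits a phosphatase to Mdm2, was among the brightest of the group, at 11.32 and 12.77. Ppm1d, the phosphatase that switches off damage signalling, went from 8.17 to 9.61, and Mdm4, a relative of Mdm2, from 8.61 to 9.62. Cop1, another p53 ubiquitin ligase, stood at 8.56 and 8.19 and was not called.

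Of 14 genes that act in arrest, 10 were higher. Btg2, an antiproliferative gene, went from 8.08 to 10.49, a 5.31-fold difference. Trp53inp1, a cofactor of p53, went from 10.07 to 12.21, and Zmat3, an RNA-binding protein gene, read 7.01 in mock-treated p63 cells and was higher by 1.99. These genes were high on both treated arrays and low on both mock arrays. Gtse1, which restrains p53 in G2, went from 8.32 to 10.25. Gtse1, Btg1 (9.54 and 11.39) and Gadd45a (7.96 and 9.22) had mock-treated p63 values below those of mock-treated GFP cells, which were 8.75, 10.61 and 8.54. Pml, which forms nuclear bodies, showed this most, with 7.17 and 9.42 in p63 cells and 8.65 and 9.62 in GFP cells, so that 5 of the 10 were also called against the GFP mock array. Gadd45b (9.58 and 10.40) and Gadd45g (9.52 and 8.98) were not called.

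Of 14 genes that act in death, 10 were higher and 9 of these were so against both mock arrays. Fas, a death receptor, went from 7.19 to 9.58, and Eda2r, a receptor of the TNF receptor family, from 7.41 to 9.98. Tnfrsf10b, the mouse receptor for TRAIL, went from 7.92 to 9.45, and Tnfrsf23, a decoy receptor, from 6.56 to 7.92. All of these receptors were called. Inside the cell, Pmaip1, which encodes NOXA, went from 8.07 to 10.21, Pidd1, the scaffold that activates caspase 2, from 5.87 to 7.67, and Apaf1, the scaffold of the apoptosome, from 9.65 to 10.65. Perp, a desmosome gene that p53 and p63 both activate, was already at 10.27 in mock-treated p63 cells and stood 0.73 above this after etoposide, against 6.03 and 8.55 in GFP cells. The BCL-2 family as a whole had 2 of 15 members higher and 1 lower, with a median of 0.11. Against both mock arrays 1 was higher and 0 lower. These counts, and those of the death receptor list below, are read against the 6.28% of all genes higher and the 1.33% lower. Bcl2l11, the BH3-only gene for BIM, was higher at 6.48 and 7.95, although mock-treated GFP cells read 7.27. Bnip3, a mitochondrial BH3-only gene and a hypoxia target, was lower at 8.02 and 6.30, and its other probe set gave -1.35. Among death receptors, caspases and necroptosis genes 4 of 20 were higher, 3 of them against both mock arrays, and 1 was lower. Mlkl, the pore-forming effector of necroptosis, went from 8.98 to 10.08, and Casp12 from 6.54 to a reading below the filter, a difference of -0.67 once raised, which leaves no lower gene on the list.

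Repair genes among the p53 targets were divided, with 3 of 11 higher, 2 of them against both mock arrays, and a median of 0.27. Polk, a polymerase that copies past damage, went from 7.82 to 9.83, and Ercc5, the 3' endonuclease of nucleotide excision repair, from 8.87 to 10.45. Pcna was bright and not called, at 11.11 and 11.62. Metabolic and stress targets had 12 of 23 higher, all 12 also above mock-treated GFP cells. Slc19a2, a thiamine transporter, had 7.82 and 10.67, a 7.19-fold difference and the largest of the list. Ddit4l and Ddit4, related inhibitors of mTORC1, went from 6.38 to 9.12 and from 7.61 to 9.65. Sesn2 (7.31 and 8.99), Ulk1 (7.11 and 8.86), the kinase that starts autophagy, and Dram1 (7.01 and 8.93), a lysosomal membrane protein gene, were higher as well. Phlda3, which restrains AKT, stood at 10.12 and 10.32 in p63 cells but at 8.63 and 10.15 in GFP cells, so only the mock-treated GFP array was low. The carboxylesterases Ces2g (6.13 and 8.78), Ces2e (7.09 and 9.24) and Ces2f (5.89 and 7.91) are neighbours of similar sequence, as are the efflux pump genes Abcb1b (8.28 and 10.50) and Abcb1a (6.57 and 7.87), and cross-hybridisation within each group was not tested.

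Promoters of these genes were searched for the p53 half-site, the motif that makes a full p53 and p63 site when repeated. In RefSeq windows of GRCm38.p6, 250 bases before to 50 after the first start listed for a gene, a half-site on either strand was found in 12 of 36 higher p53-list genes with a window (33.3%) and in 2 of 24 that were not higher (8.33%). It was found in 603 of 8613 compared genes with a window, in 61 of 553 higher genes, and in 8.37% of all 27025 genes in the table. The 4 higher list genes with the largest differences and a half-site before the start are shown over 90 bases, on the gene's strand, with the half-site in capitals. They lie at chr3:137623537-137623626 (Ddit4l, plus strand), chr8:104961620-104961709 (Ces2g, plus), chr10:117710900-117710989 (Mdm2, minus) and chr9:58249886-58249975 (Pml, minus), and a match is a description of letters and not a shown binding site.
Ddit4l: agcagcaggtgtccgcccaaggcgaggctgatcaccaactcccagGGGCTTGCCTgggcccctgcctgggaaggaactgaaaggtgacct
Ces2g: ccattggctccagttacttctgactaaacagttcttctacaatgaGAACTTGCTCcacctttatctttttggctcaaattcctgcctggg
Mdm2: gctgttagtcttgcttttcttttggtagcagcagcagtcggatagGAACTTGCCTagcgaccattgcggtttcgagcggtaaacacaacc
Pml: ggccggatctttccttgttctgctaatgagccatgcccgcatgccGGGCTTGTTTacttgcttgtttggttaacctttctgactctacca

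**Figure D2:**
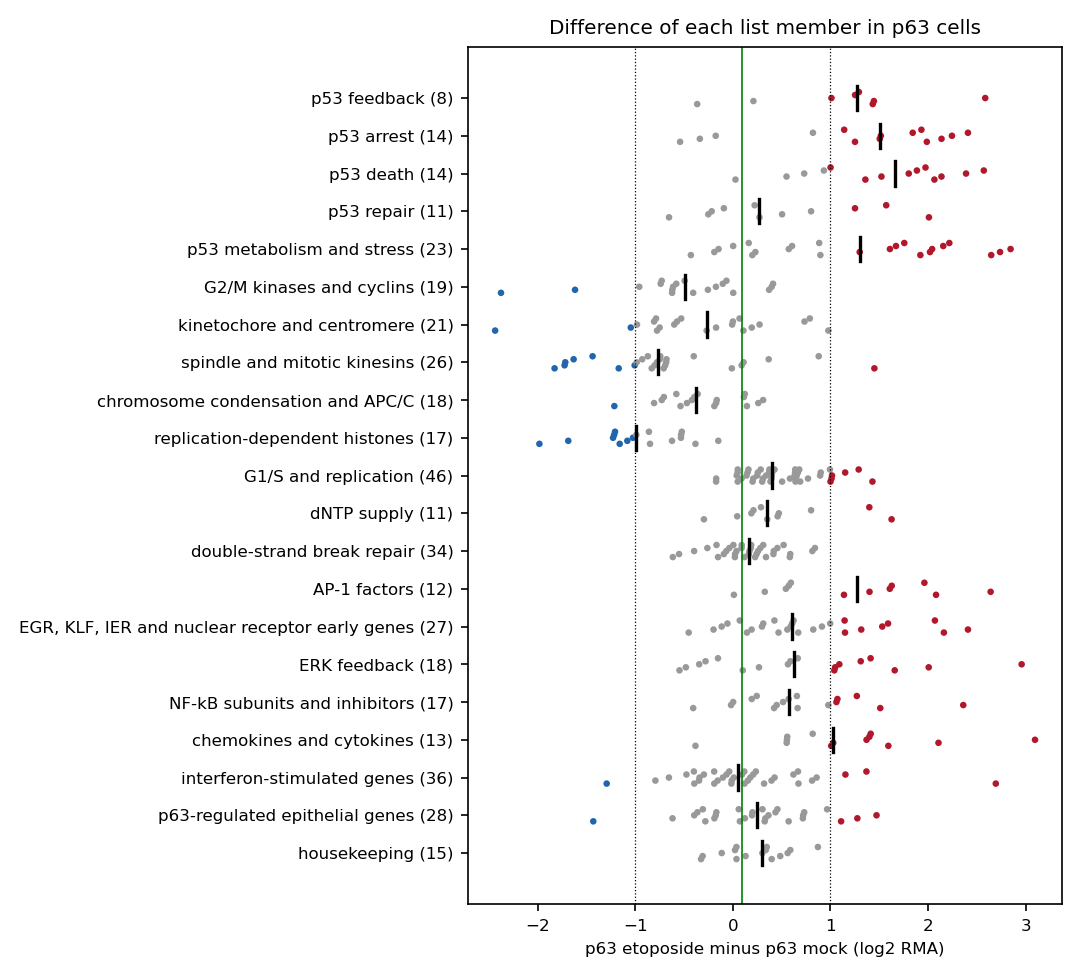
Each point is a gene of the list named on the y axis (number compared in brackets), at its etoposide minus mock difference in p63 cells (log2 RMA), red at 1 or more and blue at -1 or less, with a black bar at the list's median and a green line at the 0.10 of all genes. The p53 lists other than repair have medians from 1.27 to 1.66, the mitotic lists from -0.76 to -0.27, and the histones -0.99.

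Of 84 genes on 4 mitotic lists, 12 (14.3%) were lower by at least 1 and 1 was higher, against 1.33% and 6.28% of all genes. All 12 were also at least 1 below mock-treated GFP cells. The median was -0.55 and 62 of the 84 were below 0. In GFP cells the median was -0.74 and 25 were lower, against 2.12% of all genes. With the arrays centred, 20 of the 84 were called lower in p63 cells.

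Plk1, the kinase that drives mitotic entry, went from 9.37 to 6.99 in p63 cells, a 5.19-fold difference, and read 9.76 and 7.37 in GFP cells. Aurka, the kinase of the spindle poles, went from 8.92 to 7.30. Among the kinases and cyclins these were the only 2 of 19 called, and Ccna2 (10.38 and 10.12) and Bub1 (9.79 and 9.72) were bright and little different. Of 21 kinetochore genes 2 were lower, Cenpf (8.34 and 5.90) and Knl1 (9.32 and 8.28), while Cenpa stood at 9.22 and 8.69. The spindle list held the most calls, with 7 of 26 lower and a median of -0.76. The microtubule bundlers Nusap1 and Prc1 went from 7.83 to 6.00 and from 9.66 to 7.94, and Aspm, a spindle pole protein gene, from 8.42 to 6.71. The motors Kif18a (7.74 and 6.10), Kif20b (9.50 and 8.07), Kif11 (9.40 and 8.23) and Kif2c (9.21 and 8.21) were lower. Kif18b, a close relative of Kif18a, was higher, at 7.97 and 9.42 in p63 cells and 8.68 and 9.68 in GFP cells. Top2a, the isoform that etoposide traps in dividing cells, went from 11.12 to 9.90 and was the only one of 18 condensation and APC/C genes called. Top2b (9.97 and 9.68) and Top1 (9.50 and 9.35) were not called.

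The cell cycle homology region is the promoter element through which the DREAM and MuvB complexes control mitotic genes. TTTGAA or TTCGAA was found on either strand of the 300-base window in 10 of 12 lower mitotic genes (83.3%) and also in 42 of 60 mitotic genes that were not lower (70.0%), against 13.4% of compared genes and 19.4% of all 27025 genes in the table. Of 98 lower genes with a window 31.6% held it, and of 553 higher genes 13.4%. Nusap1 and Kif18a were the 2 lower genes without a match. Among the 10 with one, the match nearest the start is shown for the 6 with the largest differences, in 30 bases on the gene's strand with the matches in capitals. It begins 2 bases after the start in Cenpf (chr1:189688067-189688096, minus strand), 30 after in Plk1 (chr7:122159453-122159482, plus), 5 before in Prc1 (chr7:80294434-80294463, plus), 6 after in Aspm (chr1:139454767-139454796, plus), 32 after in Aurka (chr2:172370521-172370550, minus) and 7 after in Kif20b (chr19:34922353-34922382, plus), where a pair of matches abut.
Cenpf: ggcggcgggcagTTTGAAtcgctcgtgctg
Plk1: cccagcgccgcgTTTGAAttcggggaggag
Prc1: cctctggctcggTTTGAAttccgcggggtc
Aspm: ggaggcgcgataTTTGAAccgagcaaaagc
Aurka: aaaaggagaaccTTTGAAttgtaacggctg
Kif20b: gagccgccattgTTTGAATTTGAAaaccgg

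Replication genes leaned the other way against the mock-treated p63 array. Of 46 genes of G1/S and replication, 44 were above 0, 6 were called higher and 0 lower, and the median was 0.40. Among all genes 59.5% were above 0 and 6.28% higher. None of the 6 was at least 1 above mock-treated GFP cells, and with the arrays centred the median was 0.20 with 2 called. Against the mock-treated GFP array the list's median difference was 0.08. Its median signal was 8.54 on the mock-treated p63 array and 9.12 on the etoposide-treated one, and 8.95 and 9.12 in GFP cells. Cdt1, which loads the replicative helicase, went from 7.45 to 8.88 in p63 cells but read 8.89 and 9.17 in GFP cells, so the mock-treated p63 array alone was low. Orc1 (6.08 and 7.37), E2f7 (7.58 and 8.73) and Mcm10 (7.74 and 8.75) were also called. Among genes of nucleotide supply Rrm2, a subunit of ribonucleotide reductase, stood at 10.28 and 11.91 and read 10.57 and 11.76 in GFP cells, so both treated arrays were high, while its partner Rrm1 stood at 11.50 and 11.54. The kinase gene Dck went from 8.21 to 9.61, and 1 of these 2 calls held against both mock arrays. No gene of 34 in double-strand break repair was called in either direction, with a median of 0.17, and the largest difference was that of Rad50 (8.75 and 9.59).

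Of 17 replication-dependent histone genes compared, 8 were lower, against 1.33% of all genes, and all 17 were below 0, with a median of -0.99. With dim readings raised 6 were lower. Against the mock-treated GFP array 4 of the 8 were called. H2bc14 went from 9.87 to 7.89, H4c6 from 9.72 to 8.03 and H1f2 from 9.20 to 7.98. H1f5 (10.55 and 10.02) and H4c4 (10.46 and 9.60) were brighter and not called. Histone genes of a family are near-identical in sequence, so signal may be shared between them.

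**Figure D3:**
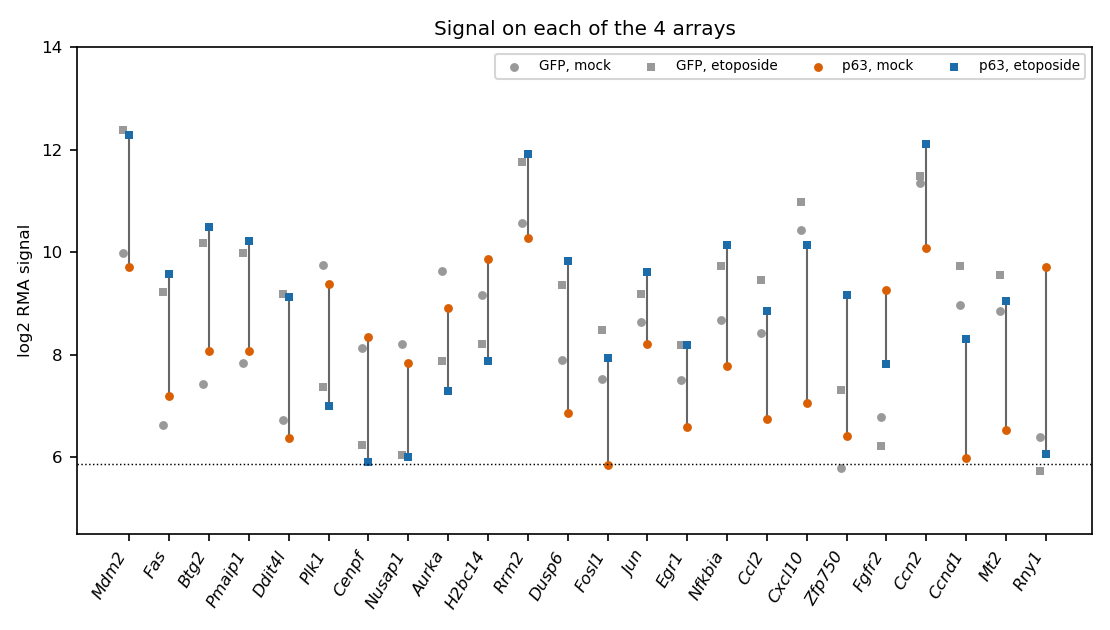
Log2 RMA signal of 24 genes on the 4 arrays (grey circles and squares for mock-treated and etoposide-treated GFP cells, orange circles and blue squares for mock-treated and etoposide-treated p63 cells), with a line joining the p63 arrays and a dotted line at the filter of 5.87. For Mdm2, Fas, Plk1 and Nusap1 each mock array lies near the other mock array, whereas for Cxcl10, Ccnd1, Mt2 and Rny1 the mock-treated p63 array lies away from the remaining 3.

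Of 57 early response genes on 3 lists, 23 (40.4%) were higher by at least 1, against 6.28% of all genes. None was lower, and the median was 0.62. Of the 23, 11 were also called against mock-treated GFP cells. In GFP cells 10 of the 57 were higher, against 3.52% of all genes, with a median of 0.40. With the arrays centred, 17 of the 57 were called higher in p63 cells. Of 12 AP-1 genes 7 were higher, 5 of them against both mock arrays, and all 12 were above 0. Fos went from 4.98, below the filter, to 7.62, or at least 3.36-fold with the dim reading raised to the filter. Jun went from 8.21 to 9.61 and Junb from 6.77 to 7.91, while Jund, at 7.69 and 8.28, was not called. Atf3 (7.03 and 8.99) and the small Maf genes Mafk (6.92 and 8.53) and Maff (5.43 and 7.06) were higher on both treated arrays than on both mock arrays. Fosl1 went from 5.86 to 7.94, with 7.53 and 8.48 in GFP cells.

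Feedback inhibitors of ERK signalling followed the same direction, with 8 of 18 higher, 3 of them against both mock arrays. Dusp6, a cytoplasmic ERK phosphatase, went from 6.86 to 9.82, a 7.78-fold difference, against 7.89 and 9.36 in GFP cells. Dusp7 went from 7.62 to 9.62 and Dusp1 from 7.91 to 9.57. Errfi1, an inhibitor of EGFR (8.94 and 9.98), and the ERK-responsive factors Etv4 (higher by 1.09 from 5.91) and Etv5 (5.56 and 6.61) were called as well. Etv5 was at 0.74 with its dim reading raised. Dusp14 stood at 9.18 and 8.63 and was not called. Egr1 went from 6.60 to 8.19, Ier2 from 7.03 to 8.35, Nr4a1 from 5.64 to 7.17, and Ptgs2, which encodes COX-2, was higher by 2.16, at 11.16 after etoposide. Mock-treated GFP cells read 7.50 for Egr1 and 10.16 for Ptgs2, above mock-treated p63 cells, and etoposide-treated GFP cells 8.19 and 11.12. Ligands and receptors upstream of ERK were mixed. Ereg, an EGFR ligand, went from 4.38 to 7.14, at least 2.41-fold with the dim reading raised, and Epha2 from 7.97 to 10.01, with 9.37 in mock-treated GFP cells. Fgfr2, which p63 regulates, went from 9.25 to 7.82 and remained above GFP cells, which had 6.79 and 6.23.

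Of 30 NF-kB regulators and cytokines, 13 (43.3%) were higher, against 6.28% of all genes, and 0 lower, with a median of 0.74. In GFP cells 6 of the 30 were higher, against 3.52% of all genes, with a median of 0.37. For p63 cells the number at least 1 above mock-treated GFP cells as well was 6. Nfkbia, the inhibitor that NF-kB induces against itself, went from 7.77 to 10.13. Tnfaip3, the A20 deubiquitinase, went from 7.37 to 8.64 in p63 cells and from 8.07 to 7.70 in GFP cells. Nfkb2 went from 8.72 to 9.78, while Rel, a subunit, stood at 8.87 and 8.85. Among secreted factors Ccl2 went from 6.74 to 8.85, Csf1 from 8.87 to 10.28, Lif from 6.04 to 7.63 and Ccl5 from 6.10 to 7.13. Cxcl10 had 7.05 and 10.15, an 8.55-fold difference, but 10.43 and 10.98 in GFP cells, and only the mock-treated p63 array was low. The difference of Cxcl10 against mock-treated GFP cells was -0.28, and that of Ccl5 was -1.74. Csf2 stayed near the filter, at 4.72 and 6.09, with a difference of 0.22 once raised. With the arrays centred, 9 of the 30 were called.

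The NF-kB site was found in the promoter window of 7 of 10 higher genes of these lists (70.0%). It was also found in 7 of 13 that were not higher (53.8%). The shares were 10.1% of compared genes, 12.5% of higher genes and 8.18% of all 27025 genes in the promoter table. The 3 higher list genes with the largest differences and a site before the start are shown over 90 bases on the gene's strand, with the site in capitals. They lie at chr5:92348948-92349037 (Cxcl10, minus strand, with 2 overlapping matches), chr12:55492648-55492737 (Nfkbia, minus) and chr11:4257345-4257434 (Lif, plus).
Cxcl10: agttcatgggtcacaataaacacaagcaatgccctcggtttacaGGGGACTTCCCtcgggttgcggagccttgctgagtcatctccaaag
Nfkbia: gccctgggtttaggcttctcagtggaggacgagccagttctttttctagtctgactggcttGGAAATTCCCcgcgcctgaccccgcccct
Lif: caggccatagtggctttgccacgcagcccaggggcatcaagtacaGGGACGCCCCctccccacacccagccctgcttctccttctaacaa

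Of 36 interferon-stimulated genes compared, 3 were higher and 1 lower in p63 cells, with a median difference of 0.05. The shares of all genes were 6.28% higher and 1.33% lower. The list's median signal was 5.72 and 5.79 on the p63 arrays, both below the filter, and 8.26 and 7.05 on the GFP arrays, so that a shift in p63 cells could not be measured for many members. In GFP cells 20 of the 36 were lower, against 2.12% of all genes, with a median of -1.02. Against mock-treated GFP cells the p63 median was -2.44. With dim readings raised 1 was higher in p63 cells. Tap1, the peptide transporter of antigen presentation, went from 6.40 to 9.09, with 8.01 and 9.12 in GFP cells. Ifit2, an antiviral RNA-binding protein gene, went from 7.78 to 6.49. Gbp3 (4.93 and 6.30) and Ifit1 (5.39 and 6.55) were called higher from readings below the filter, with 9.46 and 10.11 in mock-treated GFP cells, and stood at 0.43 and 0.68 with those readings raised. Eif2ak2, the double-stranded RNA kinase, stood at 8.52 and 8.69.

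Among 28 genes that p63 regulates in epithelium, 7 were higher in GFP cells after etoposide, against 3.52% of all genes, with a median of 0.51. In p63 cells 3 of the 28 were higher, against 6.28% of all genes, and 1, Fgfr2, was lower, with a median of 0.25. Of the 3, 2 were higher against both mock arrays. Grhl3, a factor of epidermal differentiation, went from 5.78 to 7.25, Jup, which encodes plakoglobin, from 7.47 to 8.74, and Klf5 from 7.11 to 8.22. Itga6, an integrin of the hemidesmosome, stood at 10.86 and 10.50 and was not called. The 8 called genes for which the etoposide-treated p63 array lay farthest from the other 3 were chosen by that gap. Zfp750, a factor of terminal differentiation that p63 induces, had 6.41 and 9.15 in p63 cells and 5.79 and 7.32 in GFP cells. Ly6d, a surface protein gene of keratinocytes, had 7.98 and 9.70 in p63 cells and 5.05 and 6.31 in GFP cells. Stox2 (5.61 and 8.11), Ly6g6g (5.80 and 7.89), Ces2f, Galnt6 (4.57 and 6.20), Hoatz (5.39 and 6.90) and Coro2a (5.89 and 7.35) completed the 8. All of these were higher after etoposide, Galnt6 by 0.33 once its dim readings were raised. Whether they responded more in p63 than in GFP cells was not tested. The 4 of 11 simple epithelium markers that reached the filter had a summed linear signal of 1381 and 1674 in p63 cells and 246 and 378 in GFP cells. They were divided, with 2 above 0 and 2 below in p63 cells, 1 of these lower at -1.05. Their median signal was 6.54 and 6.10 in p63 cells, and their part in these values was not tested.

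Stress and housekeeping lists are read against the 6.28% of all genes that were higher. In the unfolded protein and ATF4 response 1 of 32 genes, Sesn2, was higher, the median was 0.02, and the chaperones Hspa5 (12.13 and 12.18) and Hsp90b1 (12.27 and 12.18) were bright and nearly level. Among heat shock genes 2 of 17 were higher, both also against mock-treated GFP cells, the small chaperones Cryab (7.15 and 8.74) and Hspb1 (7.60 and 8.70), and Hspa8 stood at 12.68 and 12.87. In the glutathione and NRF2 list 4 of 22 were higher, 2 of them against both mock arrays. They were Gss, glutathione synthetase (8.49 and 10.04), Nfe2l2, which encodes NRF2 (8.36 and 9.46), Hmox1, heme oxygenase (8.39 and 9.42), and Osgin1 (6.06 and 7.12). With the arrays centred only 1 of these 4 was called. The metallothionein Mt2, which binds zinc and copper, had 6.52 and 9.06 in p63 cells and 8.85 and 9.55 in GFP cells, so the mock-treated p63 array was the low one. Of 28 autophagy and lysosome genes 4 were higher, 2 of them against both mock arrays, with Wipi1 (6.67 and 7.84) and Atg2a (5.88 and 6.92) beside Ulk1 and Dram1. No gene of cholesterol synthesis (18 compared, median -0.19) or ribosome biogenesis (32, median 0.15) was called. Against the mock-treated GFP array these medians were 0.24 and -0.58, and in GFP cells they were -0.25 and -0.33. With the arrays centred the ribosome biogenesis median was -0.05. Of 30 ribosomal protein genes 1 was called, Rps27l (8.80 and 9.86), a known p53 target. Of 15 housekeeping genes 0 were called, and their median was 0.30, with Eef1a1 at 14.07 and 14.11 and Actb at 13.28 and 13.68.

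Calls in signalling and matrix lists are read against the 6.28% of all genes that were higher and the 1.33% that were lower. In the Notch pathway 4 of 16 genes were higher, 3 of them against both mock arrays, the receptors Notch3 (6.92 and 8.54) and Notch1 (8.46 and 9.69) and the targets Hey2 (5.59 and 6.99) and Nrarp (5.91 and 7.13), while the ligand Jag1 stood at 10.42 and 9.63. In the Wnt pathway 2 of 20 genes were higher, the ligands Wnt5a (6.66 and 8.16) and Wnt9a (6.90 and 7.99), and 1 was lower, the receptor Fzd2 (7.54 and 6.52). Of these, 1 was higher and 1 lower against both mock arrays. Among TGF-beta and YAP targets 2 of 26 were higher, 0 of them against both mock arrays. Ccn2, connective tissue growth factor, went from 10.08 to 12.10, with 11.34 and 11.49 in GFP cells, and its sister gene Ccn1 stood at 11.48 and 12.23. Cyclin D1 (Ccnd1) had 5.99 and 8.30 in p63 cells and 8.97 and 9.74 in GFP cells. Adamts5, which cleaves aggrecan, went from 9.78 to 7.47, and the inhibitor Timp1 from 9.92 to 11.14. Pcdh18, a protocadherin (9.18 and 7.38), and Sema3a, a repulsive guidance cue (9.78 and 8.01), were the only 2 of 23 guidance and adhesion genes called. Their values on both treated arrays were below those on both mock arrays. Of 26 collagen and matrix genes 1, Aspn, was called, from dim readings (6.43 and 4.27, or -0.55 once raised), and Col1a1 and Fn1 (11.66 and 12.42) were not. No gene of 23 in the actin and contractile list was called, with Acta2 at 12.91 and 13.18. Of 12 clock genes 2 were higher, 0 of them against both mock arrays, the repressors Nr1d1 (6.59 and 8.36) and Bhlhe40 (5.59 and 7.21).

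The largest single differences in p63 cells included several that rested on the mock-treated p63 array. Snrpg, a core spliceosome protein gene, had the highest difference among genes ranked without clone, predicted, RIKEN and small RNA names, 6.60 and 9.86. However, a second probe set of the gene gave 8.42 and 8.90, a difference of 0.48. Tns1, a focal adhesion protein gene, had 9.96 and 7.68, and its other 5 probe sets gave differences from -0.32 to 0.78. Usp17ld, a deubiquitinase, had 11.76 and 8.37 in p63 cells and 7.63 and 8.02 in GFP cells. Lgr4, a receptor for R-spondins (10.08 and 8.16), and Ebpl (9.63 and 7.81) were likewise highest on the mock-treated p63 array, above 8.29 and 7.67 in mock-treated GFP cells. Etoposide-treated GFP cells read 7.10 for Lgr4, which was thus called lower in GFP cells too, and 7.34 for Ebpl. Apobec1, an RNA-editing cytidine deaminase (6.63 and 9.44), Slc4a11, a membrane transporter gene (5.55 and 8.19), and Tnfrsf18, the receptor GITR (6.07 and 8.66), were in contrast high on both treated arrays. Trps1, a GATA-type repressor, stood at 10.21 and 8.03 in p63 cells and at 9.35 and 7.27 in GFP cells. Npr3, the natriuretic peptide clearance receptor, stood at 11.59 and 9.79 in p63 cells and at 10.31 and 9.03 in GFP cells. The mock-treated p63 array was highest of the 4 for each, and both genes were also called lower in GFP cells. Against mock-treated GFP cells Trps1 was at -1.31 and Npr3 at -0.52.

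Small RNA genes were singled out after their values were seen. Of 46 snoRNA genes compared, 12 (26.1%) were lower in p63 cells, against 1.33% of all genes, and 43 were below 0. Among all genes 59.5% were above 0. The snoRNA medians were 7.74 and 7.02 in p63 cells and 7.57 and 6.81 in GFP cells. The snoRNA median difference was -0.54 in GFP cells and -0.42 against the mock-treated GFP array. The lowest of the 12 against that array was Snord82, at -0.80, so the 12 were not called against it. Outside the 12, Snord87 (-1.13) and Snora2b (-1.09) were below -1 against it. The Y RNAs Rny1 (9.70 and 6.07) and Rny3 (12.72 and 10.19), components of Ro particles, were lower in p63 cells. In GFP cells Rny1 read 6.40 and 5.73, and Rny3 10.62 and 10.69. The mock-treated p63 array was the highest of the 4 for 28 of the 46 snoRNAs and for both Y RNAs.

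Genes were also grouped by genomic span. Among protein-coding genes the median difference in p63 cells was 0.15 for 3460 genes that span 10 to 30 kb, 0.03 for 1097 of 100 to 300 kb, and -0.10 for 180 genes over 300 kb. Of these 180 genes 2 (1.11%) were higher and 7 (3.89%) lower. In GFP cells the corresponding medians were -0.07, -0.18 and -0.29. Against the mock-treated GFP array the p63 medians were -0.05, -0.06 and -0.12, a smaller step. Of the 8 longest genes compared, Macrod2 (7.70 and 6.65) and Ccser1 (6.54 and 5.39) were called lower, Ccser1 at -0.67 with dim readings raised. The other 5 probe sets of Macrod2 gave differences from -0.31 to 0.30, and against mock-treated GFP cells its difference was 0.080. Pde4d (6.19 and 6.45), Rbms3 (7.60 and 7.83), Nrg1 (7.80 and 7.67), Gpc6 (6.98 and 6.93), Tenm3 (6.75 and 6.14) and Pcdh15 (5.63 and 5.57) were not.

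**Figure D4:**
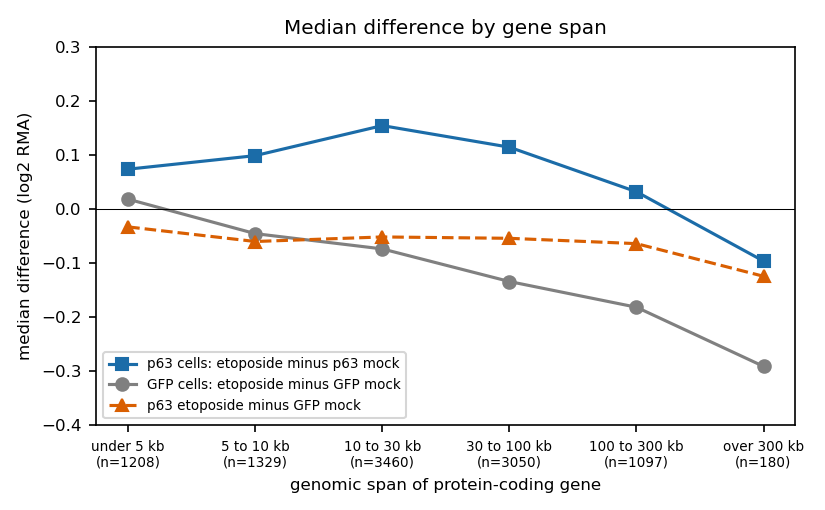
Median difference (log2 RMA, y axis) of protein-coding genes in 6 classes of genomic span (x axis, number of genes below) for etoposide minus mock in p63 cells (blue), the same in GFP cells (grey) and etoposide-treated p63 minus mock-treated GFP cells (orange). Genes over 300 kb have the lowest median on each line, at -0.10, -0.29 and -0.12.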

How the data were processed

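The deposited values were taken as log2 signals from their range. The submitters' processing notes name RMA and Affymetrix Expression Console. Per the labels' protocols, Trizol was used for the RNA, and a NuGEN kit for small amounts of RNA made the labelled cDNA. RMA subtracts a modelled background and equalises the probe distributions of the arrays, so a shift shared by most genes is largely removed. Of 35512 probe sets, 21789 had 1 gene symbol in a platform annotation of 2016, 1621 had several and 12102 had none there. Through Entrez identifiers 21698 of the 21789 matched a RefSeq table (GRCm38.p6), which gave names, types and spans. The sources used here do not name a genome build for the arrays.

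A gene's value is that of its brightest probe set by mean of the 4 arrays. Genes were kept where the highest array reached the 50th percentile (5.87). Readings below it were raised to it where a fold is given as "at least". Differences were computed in pandas 2.3.3, and cyclic loess in limma 3.58.1. With 1 array a group, no test was made, and the number of arrays limits the precision. The calling functions were tested on simulated data.

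The members, gene lists and rules were chosen with earlier results of these data known. The text names Trp63, Trp73 and Bak1; the 20 highest and 20 lowest differences, of which some are given, without clone, predicted and RIKEN names, olfactory and vomeronasal receptors and numbered small RNAs; in each list called members, up to 10, and the 2 brightest not called; the 8 called genes for which each p63 array lies farthest from the others; the 8 longest genes, both with the same names left out; and genes called in opposite directions. The small RNAs, and the marker genes below the filter, were named outside these rules, after their values were seen. Trp73 (6.16 and 6.24 in p63 cells) and Bak1 (5.71 and 5.45, below the filter) were not called. The processing was varied by dropping the filter, raising it to the 75th percentile (7.82), calling at 1.5-fold, and taking the median over probe sets of a gene, and with arrays centred on their medians, cyclic loess, dim readings raised to the filter, and the mock-treated GFP array as reference.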

Additional observations from a re-analysis of the deposited data

Results flagged for a closer look

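Ifit1, an antiviral RNA-binding protein gene that interferon induces, was the only gene called in opposite directions by etoposide in the 2 lines. It was higher by 1.15 in p63 cells (5.39 and 6.55) and stood at -1.46 in GFP cells (10.11 and 8.65). The difference between the lines was not tested. The mock-treated p63 reading lay below the filter, and with it raised the p63 difference was 0.68.

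Probe sets without a single gene symbol were outside the gene comparison. Of 5911 that reached the filter, 320 were higher by at least 1 in etoposide-treated p63 cells and 519 were lower by at least 1. Of the 10698 named genes 672 were higher and 142 lower. The probe sets without a single symbol were not compared with the GFP arrays. The part of the mock-treated p63 array in their counts was not tested.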

How the results depend on the processing

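Of the genes named, 142 were called, and the number still called was 139 with the median of probe sets, 133 under cyclic loess, 133 with dim readings raised, 121 with arrays centred and 84 with the mock-treated GFP array as reference. The 672 higher genes became 441 with the filter at the 75th percentile, 1766 at 1.5-fold and 406 with arrays centred. The 142 lower genes became 94, 588 and 263 under the same settings, and 281 with the mock-treated GFP array as reference. Fewer genes were tested under the higher filter, and more pass a lower threshold. With that GFP reference, 12 named genes changed sign, at -1.74 for Ccl5, -0.66 for Ccnd1, -0.010 for Cdt1, -0.28 for Cxcl10, 0.13 for Ebpl, 1.04 for Fgfr2, -3.16 for Gbp3, -3.57 for Ifit1, 0.080 for Macrod2, -0.20 for Mcm10, 0.041 for Tns1 and 0.74 for Usp17ld. Tns1 was also at 0.34 with the median of probe sets. This reference differs from the treated cells in virus as well as in etoposide. No paired analysis was possible because the labels give no replicate numbers and each group is 1 array. No replicate could be left out.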
